A study of Homo sapiens with 9 samples.

Results

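Intermediate filament genes were followed in HepG2 cells, a human hepatocellular carcinoma line, after a double knockdown of HNF4alpha and HNF4gamma. The 10 genes were the keratin genes KRT7, KRT8, KRT10, KRT12, KRT18, KRT19, KRT23 and KRT80 together with VIM (vimentin) and NES (nestin), out of 19775 genes that had at least 1 probe set of their own. A gene was read from probe sets annotated to its symbol alone, and its brightest probe set stood for it. The 10 genes had 18 such probe sets, and 9 of the 10 genes were among the 13056 genes bright enough to be tested. KRT80 was not, because its only probe set was above the array median on 1 of 9 arrays. The gene set was drawn up with earlier results of these arrays in view, and the probe set of each gene was chosen by its mean signal over the 9 arrays. The rises of NES and KRT12 in particular were already known, so the p-values below scale each difference to the spread between arrays and are no independent support for the choice of genes.

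The groups were knockdown1 (3 arrays), knockdown2 (3 arrays) and control (3 arrays). In both knockdown groups HNF4alpha and HNF4gamma, nuclear receptors that drive many hepatocyte genes, were targeted together with siRNA. What sets knockdown1 apart from knockdown2, which treatment the control cells had, and the time from transfection to RNA are not stated in the labels. Separate cultures for the 3 arrays of a group are not stated either, so p-values measure the spread between arrays, which may be technical.

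Each value is a MAS5 signal, a relative brightness, that was rescaled so that every array had the same median of 14.1. Differences are given as log2(signal + 1.41) of the first-named group minus that of the second, with the standard error (SE), which understates the change of dim genes. Adjusted p-values come from limma over all 13056 genes, and a gene is called changed where this p is under 0.05. Brightness differs between probe sets for reasons other than RNA amount, so levels are compared only within a probe set. Correlations between arrays, across genes on the log2 scale, were 0.973 to 0.978 within groups and 0.931 to 0.953 between groups. The 12 hepatocyte markers checked, from ALB to the fibrinogen genes, had means above the array median, and their summed signal was 42996 to 52154 in knockdown1, 48454 to 51986 in knockdown2 and 50037 to 60333 in control. Over both knockdowns 3 of the 12 were called lower and 0 higher: TF, transferrin (log2 difference -0.76, limma adjusted p = 8.21e-06), APOA1, the main HDL apolipoprotein (-0.71, limma adjusted p = 1.25e-05), and TTR, transthyretin (-0.67, limma adjusted p = 0.00256). Of the targeted genes, HNF4G was lower over both knockdowns (log2 difference -0.92, SE 0.24, limma adjusted p = 0.00345), lower in knockdown1 (-1.28, SE 0.28, limma adjusted p = 5.38e-04) and not called in knockdown2 (-0.56, SE 0.28, limma adjusted p = 0.142). HNF4A is not reported here.

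Intermediate filaments are rope-like polymers that give cells mechanical strength. Keratins form them only as pairs of a type I and a type II chain, and simple epithelia such as the liver are built on K8 (type II) with K18 (type I). Normal hepatocytes are known for having this pair alone, whereas bile duct cells add K7 and K19. K10 belongs to the differentiating epidermis, K12 to the corneal epithelium, vimentin to mesenchymal cells and nestin to progenitor cells of the nervous system and muscle.

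Over both knockdowns against control, 4 of the 9 tested genes were called higher (KRT12, KRT19, KRT23 and NES) and 0 lower. Over all 13056 genes, 32.6% were called in that comparison, 14.7% higher and 17.9% lower. The gene set was formed with this comparison known, so nothing is read from the excess. KRT12 was tested only because its 6 knockdown arrays were above the array median, so its part in the counts given here supports nothing further. All 6 knockdown arrays lay above all 3 control arrays for the same 4 genes, as for 9.76% of all genes, and below them for 0 of the 9, as for 11.2% of all genes. NES, KRT12 and KRT19 were called and at least 4-fold higher on the log2 scale used, as 0.314% of all genes were. KRT8, KRT18, KRT7, KRT10 and VIM were not called. The median log2 difference of the 9 genes was 0.27, beside -0.01 over all genes. In the order of log2 differences over all 13056 genes, from the largest rise down, NES stood at place 5, KRT12 at 12, KRT19 at 24 and KRT23 at 94. The other 5 tested genes stood at places from 3448 (KRT10) to 7434 (KRT7).

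**Figure D1:**
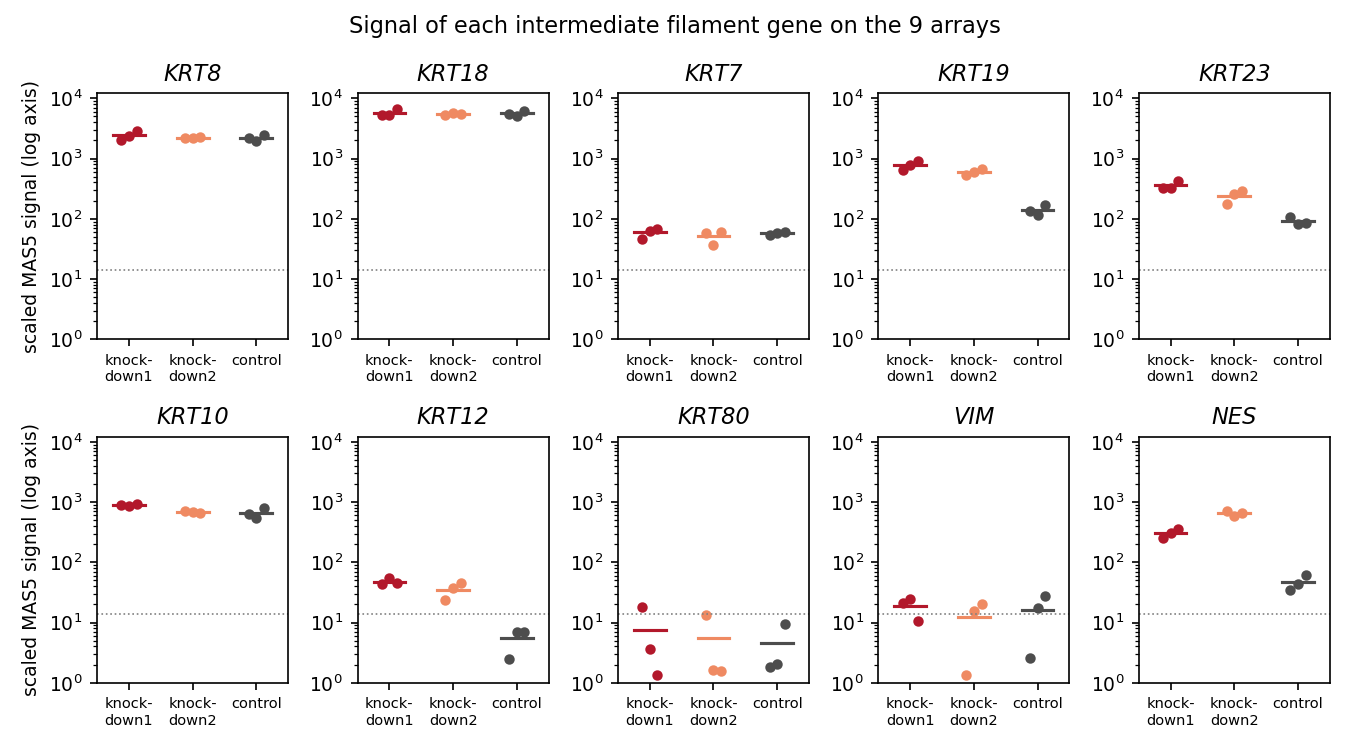
Scaled MAS5 signal (log axis) of the brightest probe set of each of the 10 genes, with 1 point for each of 3 arrays per group and a bar at the group mean; the dotted line is the common median of 14.1. KRT19, KRT23, KRT12 and NES lie higher on all 6 knockdown arrays than on the 3 control arrays, the groups of KRT8, KRT18 and KRT7 overlap, VIM scatters around the median line, and KRT80 lies below it on 8 of 9 arrays; heights are not comparable between genes.

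Promoter sequence was available for KRT8, KRT10, KRT12, VIM and NES, which is 5 of the 10 genes, from RefSeq on GRCh38.p14; KRT7, KRT18, KRT19, KRT23 and KRT80 are named only. Sequences of 3 promoters are shown, each the 250 bases before the transcription start on the gene's own strand, 5′ to 3′. NES had the largest rise, and KRT12 and KRT10 are adjacent genes of the type I keratin cluster on chromosome 17, of which KRT12 was called over both knockdowns and KRT10 was not. NES lies at chr1:156677408-156677657 (minus strand), KRT12 at chr17:40867224-40867473 (minus strand) and KRT10 at chr17:40822615-40822864 (minus strand). Capitals mark matches to 1 of 6 short motifs, searched on both strands.
NES: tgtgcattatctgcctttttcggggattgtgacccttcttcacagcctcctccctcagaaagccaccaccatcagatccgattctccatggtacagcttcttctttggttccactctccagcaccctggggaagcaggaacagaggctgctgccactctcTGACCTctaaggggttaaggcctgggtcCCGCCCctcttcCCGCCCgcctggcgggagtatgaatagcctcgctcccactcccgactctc
KRT12: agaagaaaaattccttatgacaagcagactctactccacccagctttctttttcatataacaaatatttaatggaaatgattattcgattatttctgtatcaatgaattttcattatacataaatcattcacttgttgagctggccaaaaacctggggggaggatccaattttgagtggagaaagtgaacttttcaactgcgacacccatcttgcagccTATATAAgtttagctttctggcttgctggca
KRT10: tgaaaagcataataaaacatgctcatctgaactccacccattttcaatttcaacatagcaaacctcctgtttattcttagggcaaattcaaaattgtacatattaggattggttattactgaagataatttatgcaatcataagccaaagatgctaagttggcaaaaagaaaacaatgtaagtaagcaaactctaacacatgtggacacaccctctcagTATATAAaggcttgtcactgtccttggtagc

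KRT12 and KRT10 carried the TATA box letters TATATAA at the same place, starting 31 bases before the transcription start, and both windows were poor in G and C (36.4% for KRT12 and 34.8% for KRT10). TATATAA was found in 2.42% of 35116 promoter windows of the same length. The NES window held 58.0% G and C. It had no TATATAA but 2 GC boxes on the opposite strand (GGGCGG, 62 and 50 bases before the start) and 1 nuclear receptor half-site on the opposite strand (AGGTCA, 90 bases before the start). GGGCGG was present in 42.6% and AGGTCA in 12.1% of all windows. The HNF4 site core CAAAGTCCA (0.325% of windows), the AP-1 site TGANTCA (6.57%) and the TEAD site GGAATG (11.9%) matched in none of the 5 windows. The KRT8 window held no match to any of the 6 motifs, and the VIM window held 1 GC box, 46 bases before the start. A match or its absence describes letters in this window and says nothing about binding.

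The hepatocyte pair KRT8 and KRT18 showed no called difference in any of the comparisons. KRT8 had signals of 2064, 2365 and 2843 in knockdown1, 2228, 2170 and 2278 in knockdown2 and 2171, 1928 and 2448 in control. The 3 groups overlapped, and the log2 difference over both knockdowns was 0.09 (SE 0.12, limma adjusted p = 0.612). KRT18 had signals of 5369, 5329 and 6636 in knockdown1, 5304, 5722 and 5538 in knockdown2 and 5577, 5164 and 6074 in control. These groups overlapped too, with a log2 difference over both knockdowns of 0.01 (SE 0.10, limma adjusted p = 0.958). The 95% interval of the ratio of knockdown to control ran from 0.90 to 1.26 for KRT8 and from 0.87 to 1.17 for KRT18. Both are read from probe sets of the x type, whose probes can also match related sequences, and the pair has many near-identical pseudogene copies, so part of the signal may come from elsewhere. The probe sets used for KRT10, CD24, PERP, TUBB3, DCN and APOA1 are of the x type as well.

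The width of these intervals depended on the scaling of the arrays. As deposited, every array already had the same mean of 99.6 after trimming 2% of values at each end. With these values, the SE of KRT8 fell to 0.06 and that of KRT18 to 0.05. KRT8 was then called higher in knockdown1 than in control (log2 difference 0.23, limma adjusted p = 0.0182), against 0.15 (limma adjusted p = 0.448) after median scaling. Quantile normalization, which gives all arrays the same distribution, called KRT8 (0.28, limma adjusted p = 0.00240) and KRT18 (0.15, limma adjusted p = 0.00216) in knockdown1 as well. In knockdown2 against control neither gene was called under any of the 3 scalings.

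The keratins of bile duct cells differed among themselves. KRT19, the smallest type I keratin and a marker of ductal and progenitor cells, was higher in both knockdowns. Its signals were 644, 769 and 912 in knockdown1, 531, 587 and 669 in knockdown2 and 134, 116 and 172 in control. Every knockdown array lay above every control array. The mean was 775 ± 134 in knockdown1, 596 ± 69.6 in knockdown2 and 141 ± 28.7 in control (SD, n = 3 each), which is 5.51 times control in knockdown1 and 4.24 times control in knockdown2. Over both knockdowns the log2 difference was 2.27 (SE 0.14, limma adjusted p = 1.40e-12), with values of 2.46 for knockdown1 (limma adjusted p = 2.54e-12) and 2.09 for knockdown2 (limma adjusted p = 1.19e-10), each with an SE of 0.16.

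KRT7, the type II keratin that accompanies K19 in ducts, was not called in any comparison. Its brightest probe set gave 45.7, 63.8 and 68.5 in knockdown1, 57.3, 36.9 and 61.1 in knockdown2 and 54.3, 58.0 and 60.9 in control. The knockdown arrays lay on both sides of the controls, and the log2 difference over both knockdowns was -0.08 (SE 0.18, limma adjusted p = 0.786), with a 95% interval of the ratio from 0.73 to 1.23. The other 3 KRT7 probe sets were above the array median on 0 of 9 arrays, so the KRT7 result rests on 1 probe set.

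KRT23, a type I keratin of simple epithelia and several carcinomas, was higher in both knockdowns. It had signals of 321, 323 and 429 in knockdown1, 176, 258 and 292 in knockdown2 and 105, 82.2 and 84.3 in control. All 6 knockdown arrays lay above the controls, and all knockdown1 arrays above all knockdown2 arrays. The mean was 358 ± 62.2 in knockdown1, 242 ± 59.9 in knockdown2 and 90.5 ± 12.7 in control (SD, n = 3 each), or 3.95 times control in knockdown1 and 2.67 times control in knockdown2. Against control, knockdown1 differed by 1.96 (limma adjusted p = 1.06e-09) and knockdown2 by 1.38 (limma adjusted p = 8.75e-07) on the log2 scale, both with an SE of 0.18.

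Of 8 other biliary and progenitor markers listed, 6 were annotated and 5 tested, and these did not move as 1 group. CD24, a surface protein of progenitor cells, was higher over both knockdowns (81.2 ± 17.5 in knockdown1, 68.1 ± 13.7 in knockdown2, 25.3 ± 9.98 in control, SD, n = 3 each; log2 difference 1.55, SE 0.21, limma adjusted p = 1.05e-06). SPP1, the secreted phosphoprotein osteopontin, was higher in knockdown1 (432 ± 47.6 against 96.2 ± 29.1 in control) and not called in knockdown2 (111 ± 22.6, limma adjusted p = 0.427). PROM1, a progenitor membrane protein, was lower over both knockdowns (log2 difference -0.58, SE 0.13, limma adjusted p = 8.87e-04). EPCAM, an epithelial adhesion protein, averaged 1470 ± 140 in knockdown1, 545 ± 38.2 in knockdown2 and 1120 ± 251 in control (SD, n = 3 each). Against control its log2 difference was 0.41 for knockdown1 (limma adjusted p = 0.0357) and -1.02 for knockdown2 (limma adjusted p = 6.94e-06), and the knockdowns differed directly by 1.43 (SE 0.15, limma adjusted p = 2.59e-08). SOX9, a ductal transcription factor, was not called over both knockdowns (0.20, SE 0.12, limma adjusted p = 0.237), though it was with the values as deposited (0.23, limma adjusted p = 0.0182), with quantile normalization (0.23, limma adjusted p = 0.0134) and without control replicate 3 (0.34, limma adjusted p = 0.0234). EPCAM and SOX9 were named after their values were seen. CFTR had a mean under the array median. The summed signal of the 6 genes was 3162 to 3649 in knockdown1, 2184 to 2275 in knockdown2 and 2329 to 3442 in control. The part of other cells or of a change within the cells in the rise of KRT19 and KRT23 was not tested, and in bulk RNA more cells of a type and more RNA per cell cannot be told apart.

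KRT10 and KRT12 are type I keratins of stratified epithelia whose genes stand next to each other, followed by KRT20 and KRT23. The 4 neighbours had different values. KRT12 had signals of 43.1, 54.7 and 44.9 in knockdown1, 23.2, 37.4 and 44.5 in knockdown2 and 2.45, 7.05 and 6.99 in control. It was above the array median on the 6 knockdown arrays alone. Because that is how it entered the test, it had to differ, and its call supports nothing further. The mean was 47.6 ± 6.25 in knockdown1, 35.1 ± 10.8 in knockdown2 and 5.50 ± 2.64 in control (SD, n = 3 each), or 8.65 times control in knockdown1 and 6.38 times control in knockdown2. The log2 difference over both knockdowns was 2.67 (SE 0.32, limma adjusted p = 1.35e-07). It was 3.02 with no pseudocount and 1.48 with a pseudocount as large as the median, since the control signals were dim.

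KRT10, a keratin of suprabasal skin cells, had signals of 884, 875 and 912 in knockdown1, 723, 691 and 653 in knockdown2 and 641, 535 and 798 in control. The knockdown1 arrays lay above all others, and the knockdown2 arrays overlapped the controls. The log2 difference was 0.45 in knockdown1 (SE 0.15, limma adjusted p = 0.0160), 0.08 in knockdown2 (SE 0.15, limma adjusted p = 0.731) and 0.27 over both (SE 0.13, limma adjusted p = 0.106). With KRT10, knockdown1 against control had 5 of 9 genes called higher and 0 lower, where 33.3% of all genes were called; knockdown2 against control had 4 higher and 0 lower, where 27.6% of all genes were called.

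The KRT10 call moved with the processing. Over both knockdowns it was called with the values as deposited (0.30, limma adjusted p = 0.00323), with quantile normalization (0.30, limma adjusted p = 0.00261) and without control replicate 3 (0.42, limma adjusted p = 0.00506), the control array with the highest KRT10 signal. The KRT10 call in knockdown1 was lost with the mean of the 3 KRT10 probe sets (0.37, limma adjusted p = 0.0671), without the variance trend (limma adjusted p = 0.0563), without control replicate 1 (0.44, limma adjusted p = 0.0587) and without control replicate 2 (0.32, limma adjusted p = 0.0706).

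KRT20, the intestinal keratin whose gene lies between KRT12 and KRT23, stayed dim, with 6.02, 9.25 and 8.88 in knockdown1, 12.6, 1.24 and 12.3 in knockdown2 and 0.409, 10.4 and 6.76 in control, below the array median on every array. KRT80, a type II keratin whose gene adjoins KRT7, was dim as well. Its signals were 17.8, 3.59 and 1.36 in knockdown1, 13.4, 1.66 and 1.58 in knockdown2 and 1.84, 2.08 and 9.63 in control. A single bright array set the mean in each group, the groups overlapped, and no difference was detectable at this brightness.

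Markers of the epithelia to which K10 and K12 belong were mostly dim. Of 9 annotated keratinocyte markers, 7 had a mean under the array median (KRT5, KRT14, KRT15, IVL, LORICRIN, FLG and DSG3), and 0 of the 2 tested were called. Their summed signal was 76.0 to 87.1 in knockdown1, 49.1 to 71.2 in knockdown2 and 51.2 to 102 in control. Of 4 corneal epithelium markers, KRT3, the partner of K12, and ALDH3A1 were under the array median. The other two were called higher over both knockdowns. PAX6, an eye and neural transcription factor, averaged 83.4 in knockdown1, 132 in knockdown2 and 44.2 in control (log2 difference 1.22, SE 0.17, limma adjusted p = 1.30e-06), and CLU, the secreted chaperone clusterin, averaged 796, 1341 and 569 in the same order (0.85, SE 0.13, limma adjusted p = 1.09e-05). The summed corneal signal, most of it CLU, was 732 to 1084 in knockdown1, 1417 to 1577 in knockdown2 and 561 to 712 in control. Their part in the rise of KRT12 was not tested.

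**Figure D2:**
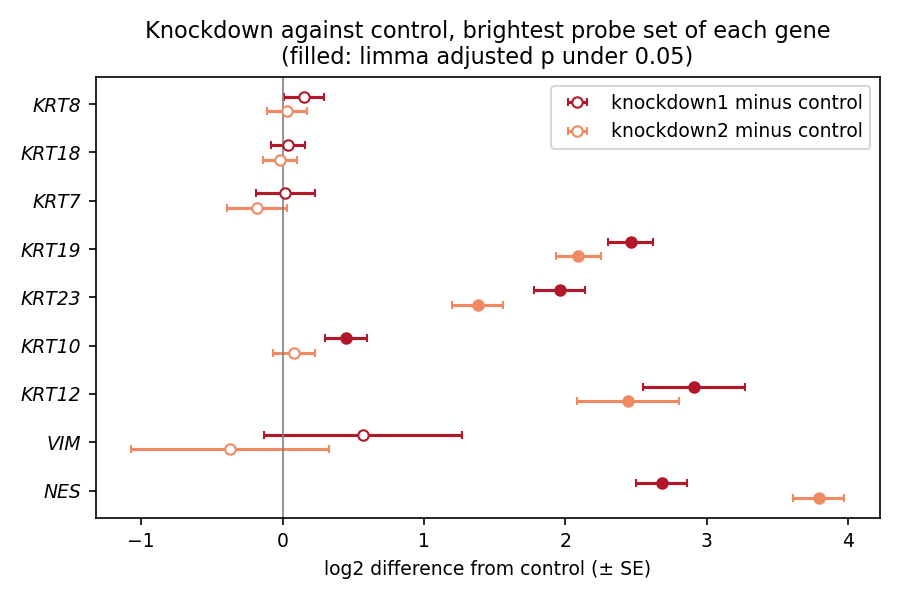
Log2 difference from control (± SE from limma) of the 9 tested genes, with knockdown1 above knockdown2 for each gene and filled points where the limma adjusted p is under 0.05. KRT19, KRT23, KRT12 and NES are filled in both knockdowns, KRT10 in knockdown1 alone, and KRT8, KRT18, KRT7 and VIM in neither; the control arrays are shared by both differences.

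NES, a large filament protein that polymerises with vimentin or desmin, had the largest rise of the gene set. Its signals were 255, 302 and 354 in knockdown1, 703, 590 and 666 in knockdown2 and 35.1, 44.3 and 61.2 in control. The 3 groups did not overlap, with knockdown2 highest. Means were 304 ± 49.5 in knockdown1, 653 ± 57.4 in knockdown2 and 46.9 ± 13.2 in control (SD, n = 3 each), or 6.48 times control in knockdown1 and 13.9 times control in knockdown2. The log2 difference was 2.68 in knockdown1 (SE 0.18, limma adjusted p = 1.96e-12), 3.79 in knockdown2 (SE 0.18, limma adjusted p = 7.99e-15) and 3.24 over both (SE 0.15, limma adjusted p = 5.74e-15). Leaving out any 1 array kept the value over both between 3.05 and 3.44.

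VIM, the filament protein of mesenchymal cells, was near the array median and scattered widely. Signals were 21.4, 24.6 and 10.5 in knockdown1, 1.35, 15.4 and 20.3 in knockdown2 and 2.55, 17.5 and 27.5 in control. The groups overlapped, and the log2 difference over both knockdowns was 0.10 (SE 0.60, limma adjusted p = 0.926). The 95% interval of the ratio, 0.45 to 2.53, leaves room for a change in either direction. The VIM probe set was above the array median on 6 arrays and a second VIM probe set on 0.

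Markers of cells known for nestin or vimentin were given the same look. Of 8 neural progenitor and glia markers, 6 had a mean under the array median (SOX2, MSI1, DCX, GFAP, OLIG2 and SOX1). Of the 2 tested, PAX6, also on the corneal list, was called higher over both knockdowns and lower in knockdown1 than in knockdown2 (log2 difference -0.65, limma adjusted p = 0.0119), a call lost without the variance trend (0.0532), without knockdown1 replicate 2 (0.0729) and without knockdown2 replicate 1 (0.117). TUBB3, the other one tested, was not called (means of 1985 in knockdown1, 2286 in knockdown2 and 1928 in control). The summed signal of the list, most of it TUBB3, was 1910 to 2399 in knockdown1, 2420 to 2495 in knockdown2 and 1842 to 2114 in control. Of 10 fibroblast and stellate markers, 7 were tested. ACTA2, smooth muscle actin, was called higher (799 ± 99.0 in knockdown1, 761 ± 92.3 in knockdown2, 386 ± 55.9 in control, SD, n = 3 each), while COL3A1, LUM and LRAT were under the array median. Over both knockdowns the other 6 tested were not called, and DCN was called lower in knockdown1 alone (log2 difference -1.19, limma adjusted p = 0.0389). The summed signal of this list, most of it ACTA2, was 866 to 1093 in knockdown1, 827 to 1049 in knockdown2 and 516 to 590 in control. Of 5 endothelial markers, 4 were under the array median and PECAM1 was called higher (log2 difference 0.59, limma adjusted p = 0.00373), a call lost with the mean of its probe sets (0.02, limma adjusted p = 0.941), with sums of 75.7 to 92.6 in knockdown1, 105 to 114 in knockdown2 and 66.1 to 73.1 in control. The 3 immune markers annotated had means under the array median. CD14 was above it on the 3 control arrays alone (31.9, 21.6 and 16.7), so it entered the test through the group where it was high and had to differ (log2 difference -2.66), and the list had sums of 11.1 to 17.5 in knockdown1, 14.2 to 20.2 in knockdown2 and 31.3 to 49.1 in control. The part of such cells in the NES result was not tested.

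The further probe sets of each gene served as a check. Of the 18 probe sets, 4 were called over both knockdowns, all higher, where 15.6% of 41091 probe sets were called without the filter on dim ones. These 4 were the brightest probe sets of KRT12, KRT19, KRT23 and NES. The second NES probe set gave 13.0 ± 3.77 in knockdown1, 11.0 ± 8.08 in knockdown2 and 2.88 ± 1.45 in control (SD, n = 3 each), a log2 difference of 1.52 (SE 0.53, limma adjusted p = 0.0717 over probe sets). It was above the array median on 2 arrays, and its difference between the knockdowns (0.52, SE 0.61) had the sign opposite to that of the bright NES probe set. The second KRT19 probe set was above the median on 0 arrays and gave -0.47 (SE 0.41, limma adjusted p = 0.548 over probe sets), so KRT19 rests on 1 probe set. KRT10 was bright on 3 probe sets, and the other 2 gave log2 differences over both knockdowns of 0.23 (SE 0.12) and 0.16 (SE 0.17), both not called. Without control replicate 3, 7 of the 18 probe sets were called.

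Compared directly, knockdown1 and knockdown2 differed for 2 of the 9 genes: KRT23 was higher and NES lower in knockdown1 than in knockdown2. Over all genes, 26.6% were called in that comparison. NES differed by a log2 value of -1.11 (SE 0.18, limma adjusted p = 1.81e-05), with a knockdown1 mean of 0.465 times the knockdown2 mean. KRT23 differed by 0.58 (SE 0.18, limma adjusted p = 0.0162). The KRT23 call was lost without the variance trend (limma adjusted p = 0.0916), without knockdown1 replicate 3 (0.44, limma adjusted p = 0.114) and without knockdown2 replicate 1 (0.36, limma adjusted p = 0.188). KRT10, KRT23 and NES had knockdown1 and knockdown2 arrays that did not overlap, as did 43.7% of all genes. KRT12 (0.47, SE 0.36, limma adjusted p = 0.392) and KRT19 (0.37, SE 0.16, limma adjusted p = 0.0988) were not called.

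This comparison depended on the scaling. The median difference of all genes between knockdown1 and knockdown2 was -0.03 after median scaling, 0.08 as deposited and 0.06 after quantile normalization. Of the genes called, 39.4% were higher in knockdown1 after median scaling, 57.1% as deposited and 56.1% after quantile normalization; for knockdown1 against control those shares were 42.9%, 54.2% and 53.7%. As deposited and after quantile normalization, 6 of the 9 genes were called, 5 higher (KRT8, KRT18, KRT19, KRT23 and KRT10) and NES lower, where 37.6% and 37.7% of all genes were called. Relative to the median of all genes the values moved little. NES lay at -1.08 after median scaling, -1.07 as deposited and -1.04 after quantile normalization. In the same order of scalings KRT23 lay at 0.61, 0.61 and 0.63, KRT19 at 0.40, 0.41 and 0.45, KRT10 at 0.40, 0.41 and 0.45, KRT8 at 0.14, 0.15 and 0.22, and KRT18 at 0.09, 0.09 and 0.14. The SEs changed as well. In that order they were 0.12, 0.06 and 0.03 for KRT18 and 0.14, 0.07 and 0.06 for KRT8. They were 0.15, 0.08 and 0.08 for KRT10 and 0.16, 0.11 and 0.11 for KRT19. SEs fell less for NES (0.18, 0.15 and 0.15) and KRT23 (0.18, 0.17 and 0.17). They hardly changed for KRT7 and KRT12 and rose for VIM (0.70, 0.81 and 0.82).

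**Figure D3:**
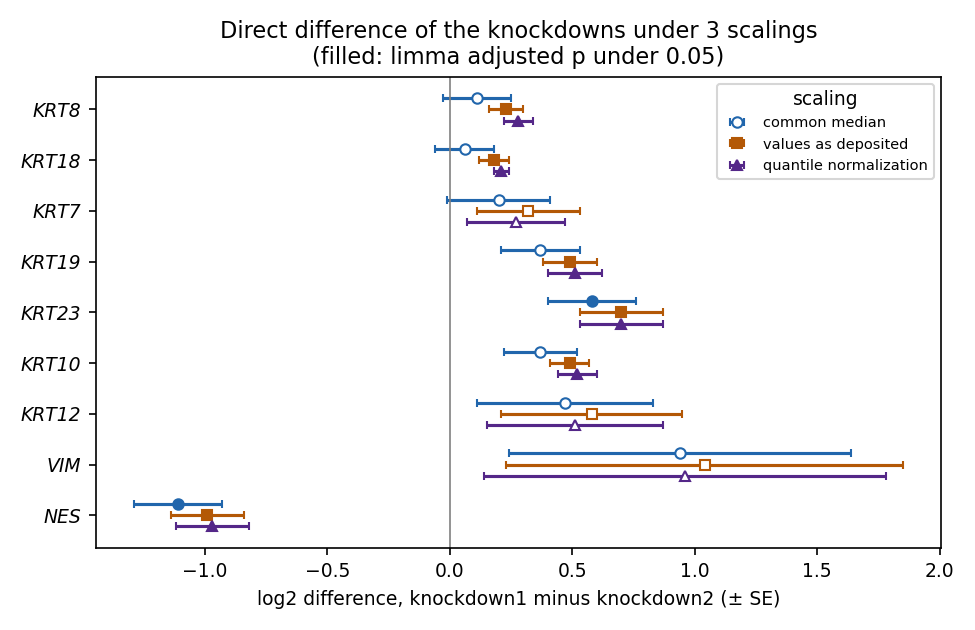
Log2 difference of knockdown1 minus knockdown2 (± SE from limma) of the 9 tested genes under 3 scalings of the arrays, filled where the limma adjusted p is under 0.05. NES lies below 0 and KRT23 above 0 and both are filled under all 3 scalings, whereas KRT8, KRT18, KRT19 and KRT10 are filled only as deposited and after quantile normalization; VIM has the widest error.

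Other genes of the intermediate filament superfamily, among them epidermal and hair keratins, lamins and the neuronal and muscle types, were mostly dim or not called. Of 60 listed, 49 were annotated and 20 tested. The 29 not tested included KRT77, whose signal of 18.1 on 1 array was the highest among them. Over both knockdowns 2 of the 20 were higher (INA and LMNA), 2 were lower (SYNM and LMNB1) and 16 were not called, where 32.6% of all genes were called, and the median log2 difference was -0.07 beside -0.01 over all genes. Knockdown1 against control had 1 higher and 2 lower (33.3% of all genes called), and knockdown2 against control 3 higher and 1 lower (27.6% of all genes called).

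SYNM, which encodes synemin, a linker of desmin and vimentin filaments, had signals of 49.5, 55.3 and 50.7 in knockdown1, 76.1, 76.9 and 84.3 in knockdown2 and 129, 109 and 145 in control. The 3 groups did not overlap, with knockdown1 lowest. The log2 difference was -1.27 in knockdown1 and -0.67 in knockdown2, or -0.97 over both (SE 0.15, limma adjusted p = 6.79e-06). INA, which encodes the neuronal filament protein alpha-internexin, had 32.5 ± 4.48 in knockdown1, 29.9 ± 0.473 in knockdown2 and 18.6 ± 2.51 in control (SD, n = 3 each). Its log2 difference over both was 0.70 (SE 0.24, limma adjusted p = 0.0244), and the call was lost without the filter on dim probe sets (limma adjusted p = 0.0618), without knockdown1 replicate 2 (0.0590), without control replicate 1 (0.0851) and without control replicate 3 (0.0597).

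The lamin genes, which encode the filaments of the nuclear envelope, differed from each other. LMNB1 had signals of 42.5, 64.4 and 45.7 in knockdown1, 151, 204 and 157 in knockdown2 and 138, 140 and 157 in control. Knockdown1 lay below both other groups, and knockdown2 overlapped control. The log2 difference was -1.50 for knockdown1 (limma adjusted p = 1.02e-07) and 0.22 for knockdown2 (limma adjusted p = 0.394), both with an SE of 0.18. LMNA had 400 ± 35.6 in knockdown1, 432 ± 16.5 in knockdown2 and 308 ± 62.8 in control (SD, n = 3 each), a log2 difference over both of 0.45 (SE 0.13, limma adjusted p = 0.0101) that was not called without control replicate 1 (limma adjusted p = 0.0514) or without control replicate 2 (limma adjusted p = 0.0699). LMNB2 had 137 ± 27.8, 234 ± 26.4 and 147 ± 14.3 in the same order and was higher in knockdown2 (0.66, limma adjusted p = 0.00277). LMNA and LMNB2 were named after their values were seen.

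Genes for proteins that tie keratin filaments to membranes or assist their assembly were mostly bright, with 26 of 32 tested. Over both knockdowns 6 were higher, 1 was lower and 19 were not called, where 32.6% of all genes were called, with a median log2 difference of 0.11. The counts were 6 higher and 4 lower in knockdown1 against control (33.3% of all genes called), and 10 higher and 3 lower in knockdown2 against control (27.6% of all genes called). PPL, the plakin periplakin that binds K8, had signals of 80.6, 75.3 and 81.7 in knockdown1, 143, 99.6 and 83.3 in knockdown2 and 30.9, 38.2 and 40.8 in control. All knockdown arrays lay above the controls, at a log2 difference of 1.30 (SE 0.17, limma adjusted p = 7.61e-07). PERP, a membrane protein of desmosomes, had 2362 ± 233 in knockdown1, 4416 ± 97.4 in knockdown2 and 1347 ± 240 in control (SD, n = 3 each; log2 difference 1.27, SE 0.12, limma adjusted p = 1.62e-09). ITGA6, an integrin chain of hemidesmosomes, had 1018 ± 119, 1612 ± 58.3 and 602 ± 84.3 in the same order (1.10, SE 0.12, limma adjusted p = 4.70e-08). These rises were larger in knockdown2 than in knockdown1 for PERP and ITGA6 and not for PPL by the direct test (limma adjusted p = 6.93e-06, 5.78e-04 and 0.126), although the mean of the PERP probe sets gave no call (-0.21, limma adjusted p = 0.342). ITGB4, another integrin chain on the list, averaged 24.7 in knockdown1, 24.1 in knockdown2 and 23.9 in control. It was not called over both knockdowns (-0.02, SE 0.29, limma adjusted p = 0.978).

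Of the other linker and chaperone genes, named after their values were seen, DSG2, a desmosomal cadherin, was higher over both knockdowns (582 ± 157 in knockdown1, 748 ± 31.0 in knockdown2, 338 ± 75.5 in control, SD, n = 3 each; log2 difference 0.97, limma adjusted p = 7.44e-06). HSPB1, a small heat shock protein, and PKP2, a desmosomal plaque protein, were also called over both (0.40 with limma adjusted p = 0.0149, and 0.36 with limma adjusted p = 0.0327). Both were called in knockdown2 (0.88, limma adjusted p = 3.24e-05, for HSPB1 and 0.61, limma adjusted p = 0.00237, for PKP2) and not in knockdown1 (-0.08, limma adjusted p = 0.723, for HSPB1 and 0.10, limma adjusted p = 0.640, for PKP2), and with the knockdown arrays pooled neither was called over both (0.362 for HSPB1 and 0.214 for PKP2). JUP, the desmosomal plaque protein plakoglobin, was the 1 called lower (-0.45, limma adjusted p = 0.00979), with -0.64 in knockdown2 (limma adjusted p = 0.00196) and -0.25 in knockdown1 (limma adjusted p = 0.225). The PKP2 call over both was lost with the mean of its probe sets (limma adjusted p = 0.0798). It was also lost without 6 different arrays in turn, with limma adjusted p up to 0.256. Between the knockdowns PKP2 differed by -0.51 (limma adjusted p = 0.0112). That call was lost with the mean of its probe sets (0.0833), without knockdown1 replicate 1 (0.0664) and without knockdown2 replicate 3 (0.0560). The JUP call over both was lost without control replicate 1 (limma adjusted p = 0.0539) and with the knockdown arrays pooled (0.0845). DSC2, a desmosomal cadherin, was lower in knockdown1 and higher in knockdown2 (274 ± 40.3 in knockdown1, 756 ± 81.1 in knockdown2, 544 ± 128 in control). DNAJB6, a chaperone that binds K18, went the other way (388 ± 34.6 in knockdown1, 110 ± 9.60 in knockdown2, 227 ± 36.4 in control). The knockdown2 call of DSC2 was lost without the filter on dim probe sets (limma adjusted p = 0.0524), without the variance trend (0.111), without knockdown2 replicate 2 (0.0885) or 3 (0.109), and without control replicate 1 (0.0553) or 2 (0.141).

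**Figure D4:**
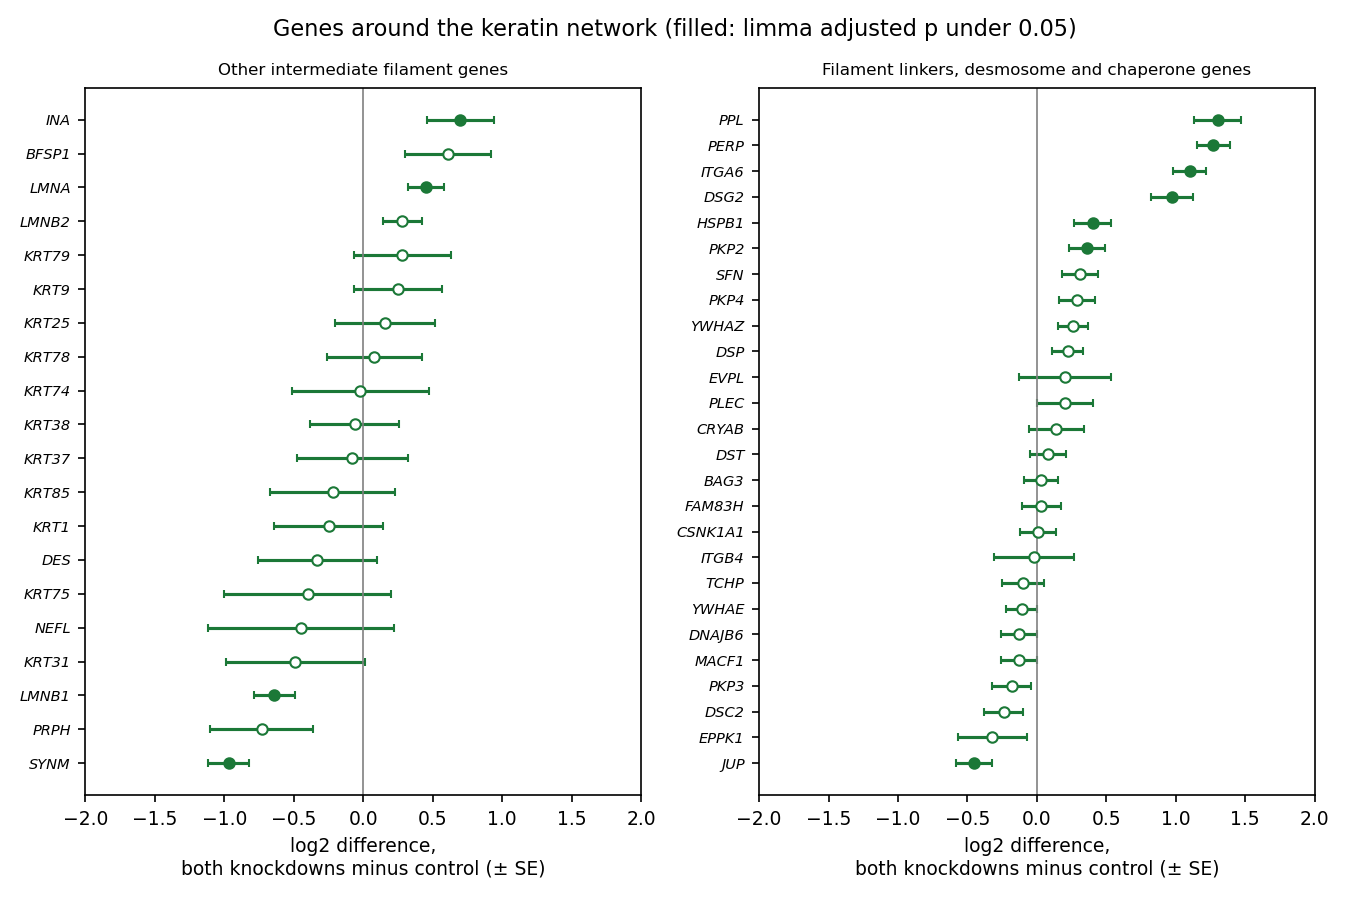
Log2 difference (± SE from limma) of both knockdowns minus control for the 20 other intermediate filament genes tested (left) and the 26 linker, desmosome and chaperone genes tested (right), filled where the limma adjusted p is under 0.05. INA and LMNA are filled above 0 and SYNM and LMNB1 below 0 on the left; on the right, 6 genes led by PPL, PERP and ITGA6 are filled above 0 and JUP below.

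For each of the 9 tested genes the most similar patterns over the 9 arrays were sought among all 13056 genes, by the root mean square of the difference between their log2 values after each gene was centred on its own mean. For NES the nearest were PAQR5, a progestin receptor family gene (0.34 log2 units; means of 138 in knockdown1, 261 in knockdown2 and 17.5 in control), and EREG, the EGF receptor ligand epiregulin (0.40; 197, 387 and 42.9). Both were lower in knockdown1 than in knockdown2, as NES was, which follows from choosing them by their likeness to NES on these arrays. For that difference the mean of the EREG probe sets gave no call (-0.38, limma adjusted p = 0.156). The nearest to KRT19 were IGFBP4 (0.23; 206, 188 and 51.6) and SOX4 (0.25; 1445, 1442 and 339), to KRT23 MED11 (0.27; 293, 165 and 77.4) and TMEM45B (0.27; 935, 457 and 212), and to KRT12 SGMS2 (0.39; 99.9, 82.5 and 21.5) and SEMA3C (0.40; 102, 82.6 and 13.8). No one of the 10 genes was among the 2 nearest of another. For KRT8 (TENT4A, CCDC47), KRT18 (CEACAM1, DGUOK), KRT10 (APOOL, SAMD8) and KRT7 (NXPH4, ZFAT) the distances were 0.04 to 0.11, as small as for genes that hardly vary, and for VIM (SLC15A1, HERC6) they were 0.58 and 0.59.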

How the data were processed

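RNA of 9 HepG2 samples was hybridised to 1-colour oligonucleotide arrays. The authors deposited 1 linear intensity per probe set, made with MAS5, per the submitters' processing notes; its version and settings are not given in the sources used here. MAS5 takes away a mismatch or background estimate at each probe, which makes dim probe sets scatter. Intensities carry no counts, and the 3 arrays per group limit the precision.

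Groups came from the sample titles. The genes and all lists were chosen with earlier results of these data known. Of 54675 probe sets, 62 control probe sets were left out, 41091 had 1 gene symbol, 1801 several and 11721 none in the platform annotation; probe sets with several or none were not used. As deposited, every array already had the same mean of 99.6 after trimming 2% of values at each end. Array medians still differed by 1.28 times, so each array was multiplied by 0.898 to 1.15 to reach a median of 14.1. This replaced the common trimmed mean. Values were log2(intensity + 1.41). Probe sets above the array median on at least 3 of 9 arrays were kept (29651), and each gene was represented by the brightest, leaving 13056 genes. All arrays entered 1 fit of 3 groups in limma 3.58.1 (R 4.3.3; eBayes with variance trend). Tests were two-sided, and p-values were adjusted by the Benjamini-Hochberg method over these genes. The check of single probe sets was fitted without the filter and adjusted over 41091 probe sets. The fit was also run on simulated data with independent noise for each gene and array. These held no error shared by a whole array, so nothing about the scaling is read from them. Named genes were the 10 genes, from each list the 3 called genes with the largest difference over both knockdowns, and the 2 nearest genes of each. Outside this rule 10 genes are so described, and further list genes are named to show what a list holds.

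Alternatives were the values as deposited, quantile normalization, other pseudocounts and filters, the mean of a gene's probe sets, no variance trend, knockdown arrays pooled into 1 group, the replicate number as a block and each array left out; for single probe sets they were added after seeing the data. The labels do not say whether equal replicate numbers mark paired samples. Correlations of deviations between arrays of 1 number were -0.02 to 0.13. These cannot settle it, as arrays of unlike number were not set beside them. The main fit had no block. Array pairs of a group shared at most 1.37% identical values and each array counted as 1 sample. Coordinates are those of RefSeq's table on GRCh38.p14.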

Additional observations from a re-analysis of the deposited data

Results flagged for a closer look

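Among the genes named, 19 differed between knockdown1 and knockdown2 by the direct test (limma adjusted p under 0.05), each given as the log2 difference of knockdown1 minus knockdown2 after median scaling. Of the 10 genes followed, these were NES at -1.11 and KRT23 at 0.58. Among other filament genes they were LMNB1 at -1.73, LMNB2 at -0.78 and SYNM at -0.60. Among linker and chaperone genes they were DSC2 at -1.47, HSPB1 at -0.96, PERP at -0.91, ITGA6 at -0.67, PKP2 at -0.51 and DNAJB6 at 1.81. Among markers of other cells they were SPP1 at 1.96, EPCAM at 1.43, CLU at -0.77 and PAX6 at -0.65. Among the genes of most similar pattern they were TMEM45B at 1.02, MED11 at 0.82, PAQR5 at -0.94 and EREG at -0.97. The calls of KRT23, PERP, PKP2, PAX6 and EREG did not hold under every alternative, as given above. As 26.6% of all genes tested differed in this comparison, a difference of this kind is common on these arrays. Many named genes were chosen by their values on these arrays, those of most similar pattern among them. The count of 19 is therefore not to be weighed against that share. Groups of 3 arrays are too small to test single arrays for standing apart.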

How the results depend on the processing

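For both knockdowns against control, 4 members were called, and leaving out 1 array gave 4 to 5. Between the knockdowns the count of 2 became 6 with the values as deposited, 6 with quantile normalization, 1 without the variance trend and 4 with the replicate number as a block, and leaving out 1 array gave 1 to 4. The count of 4 other filament genes became 2 with the knockdown arrays pooled, and 2 to 5 with 1 array left out. The count of 7 linker genes became 11 as deposited, 11 with quantile normalization, 4 with the knockdown arrays pooled and 5 to 11 with 1 array left out. The 4 single probe sets became 4 to 7. The cause of these shifts was not tested.

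Of values that were not called, KRT8 in knockdown2 against control turned to 0.00 under quantile normalization, HSPB1 in knockdown1 against control to 0.01 as deposited, and LMNA between the knockdowns to 0.01 as deposited, 0.02 with quantile normalization and 0.04 with the mean of probe sets. With 1 array left out, KRT7 ranged from -0.15 to 0.03 over both knockdowns, -0.09 to 0.19 in knockdown1, -0.32 to 0.04 in knockdown2 and -0.02 to 0.38 between them. KRT18 ranged from -0.05 to 0.07, -0.06 to 0.10, -0.08 to 0.04 and -0.05 to 0.11 in the same order. VIM ranged from -0.75 to 0.68 over both, -0.28 to 1.15 in knockdown1 and -1.22 to 0.56 in knockdown2. KRT8 ranged from -0.05 to 0.12 in knockdown2 and -0.01 to 0.22 between the knockdowns, KRT10 from -0.06 to 0.23 in knockdown2 and HSPB1 from -0.17 to 0.05 in knockdown1.

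The calls of KRT19, KRT23 and NES against control held under every alternative in which the gene was tested. KRT12 was also called wherever it was tested, but it entered the main test through the 6 knockdown arrays alone, so this adds no support. The strict filter, which asks for all 9 arrays, left out KRT12 and VIM and so gave 3 called members. Brightness limits KRT80 and VIM most.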
